A study of Sus scrofa with 37 samples.

Results

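The step across birth in pig islet cells was examined in 8 of the 37 libraries of a series on FACS-purified pancreatic islet cells. The members were chosen by age and cell type: beta and alpha cells at embryonic day 90 (E90, late gestation) against beta and alpha cells at postnatal day 8 (P8), with all genes considered. Each of the 4 groups held 2 libraries, so the comparison over both cell types set 4 P8 libraries against 4 E90 libraries. The labels give the species, pig, the tissue, pancreas, the cell type and the age, and no strain, genotype, treatment or sex. They do not say whether the libraries of a group came from different animals or from pooled ones, so p-values measure only the spread between these libraries. Total RNA was sequenced from sorted cells with a stranded kit, and expression is given as TPM, transcripts per 1000000, a share of the library's transcripts corrected for transcript length. The series also holds libraries of other ages and of delta cells, of which the E70 and P22 beta and alpha libraries are used at the end as a separate comparison.

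The libraries matched their labelled cell types. Insulin (INS) made up 26.4% and 26.7% of all TPM in beta cells at E90 and 35.8% and 32.0% at P8, against at most 0.150% in any of the 4 alpha libraries. Glucagon (GCG) made up 7.37% and 6.76% in alpha cells at E90 and 10.1% and 9.74% at P8, and at most 0.00493% in the beta libraries. Other sources of signal moved with age. The summed level of 21 markers of the acinar cell, the digestive enzyme cell that surrounds the islets, lay between 109 and 224.97 TPM in the 4 E90 libraries and between 2863 and 17500 TPM in the 4 P8 libraries. The summed level of 6 Y-linked transcripts lay between 8.57 and 15.3 TPM in all E90 libraries and between 161 and 282.6 TPM in all P8 libraries. The part of either in the results below was not tested in these 8 libraries. In these 8 libraries the level of Y-linked transcripts and age therefore cannot be told apart, and in sorted bulk samples fewer cells of a type and less RNA per cell cannot be told apart either.

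**Figure D1:**
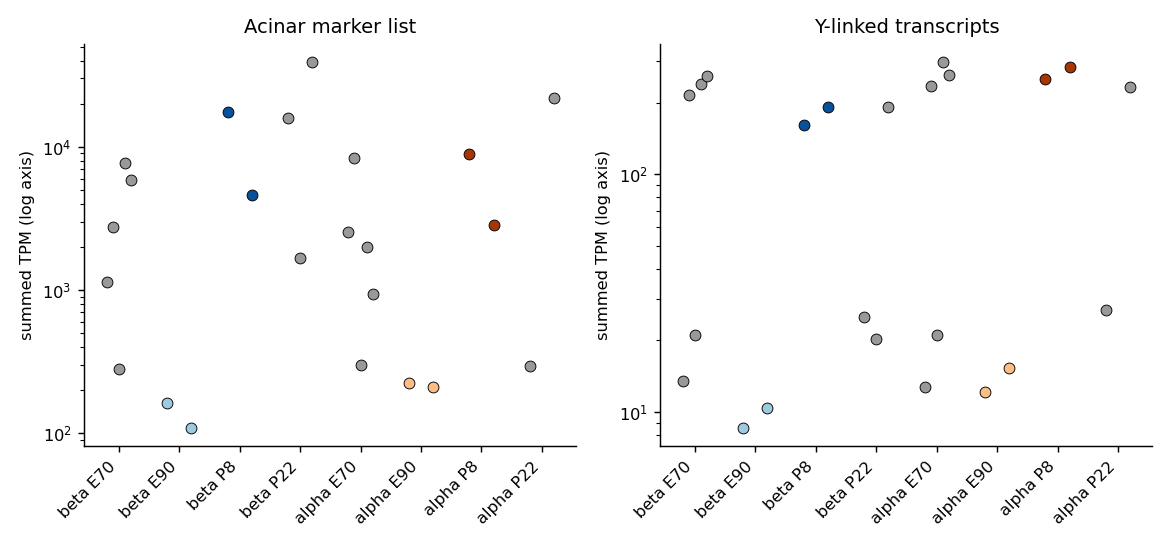
Summed TPM of the acinar marker list (left) and of 6 Y-linked transcripts (right), on log axes, in each beta and alpha library by age; each point is 1 library, and grey points are the E70 and P22 libraries. All 4 P8 libraries lie above all 4 E90 libraries in both panels, while E70 and P22 hold libraries of both low and high Y-linked level.

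Beta cells release insulin when blood glucose is high and alpha cells release glucagon when it is low. Before birth the placenta supplies a steady stream of glucose; after birth the piglet feeds on fat-rich milk and has to hold its blood glucose between meals. Around birth, glucocorticoid and thyroid hormone levels surge in mammals, and the islet cells turn from growth towards regulated secretion over the following weeks.

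Between E90 and P8 more genes fell than rose. In a limma fit of log2(TPM + 1) over 15391 genes, with each cell type weighted equally, 395 genes were higher at P8 (2.57% of the genes tested) and 2412 were lower (15.7%) at an adjusted p below 0.05, 2807 in all (18.2%). The excess of falls depended on the scaling of the libraries. As deposited, the median gene differed by -0.20 on the log2 scale, while the 10 most abundant genes took 24.5% to 41.0% of a library at E90 and 37.8% to 54.3% at P8. After scaling by the median of ratios, which raised the median difference by 0.20, 689 genes were higher (4.48%) and 943 lower (6.13%), and after quantile normalization 653 were higher (4.24%) and 746 lower (4.85%). Under all 3 scalings 339 genes were called higher (2.20%) and 680 lower (4.42%). In 324 genes (2.11%) every P8 library lay above every E90 library, and in 1937 (12.6%) every P8 library lay below. The count fell to 833 without beta E90 replicate 1, 1056 without beta E90 replicate 2, 1155 without alpha E90 replicate 1, 1253 without alpha E90 replicate 2 and 1764 without beta P8 replicate 1. Below, differences are P8 minus E90 on the log2(TPM + 1) scale with their standard error, over both cell types unless 1 is named, and this scale understates the change of low genes.

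Genes known to respond to glucocorticoid and thyroid hormone were among those that rose over both cell types. KLF9, a transcription factor induced by both hormones, stood at 3.55 and 7.33 TPM in beta cells at E90 and 26.7 and 25.2 at P8, and at 4.005 and 3.57 in alpha cells at E90 and 33.8 and 29.03 at P8. Every P8 library lay above every E90 library, and the difference was 2.44 ± 0.22 (adjusted p = 0.00118). FKBP5, a co-chaperone of the glucocorticoid receptor and one of its classical targets, stood at 65.1 and 49.9 TPM in beta cells at E90 and 160 and 147 at P8, and at 97.3 and 88.4 and 195 and 185 in alpha cells. Its groups did not overlap between the ages either, and it rose by 1.22 ± 0.12 (0.00133). HR, a corepressor known as a thyroid hormone target, was almost silent in beta cells at E90 (0 and 0.03996 TPM) and low in alpha cells (0.121 and 1.199), and reached 3.26 and 3.32 TPM in beta and 17.9 and 10.9 TPM in alpha cells at P8, a rise of 2.66 ± 0.32 (0.002699). PER2, a clock gene that glucocorticoids also induce, rose by 0.89 ± 0.13 (0.00561) from between 11.3 and 18.03 TPM at E90 to between 25.7 and 29.9 TPM at P8.

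Of the 19 tested members of the glucocorticoid response list, 6 rose (KLF9, FKBP5, PDK4, MT1G, MT2A and ERRFI1) and 2 fell (NR3C1 and the stress sensor gene ERN1). Over all genes 2.57% rose and 15.7% fell. The list had a median of 0.34 against -0.20 over all genes. After median-of-ratios scaling and after quantile normalization 6 members of the list rose again, and none fell then. Of all genes 4.48% rose and 6.13% fell after the former, and 4.24% rose and 4.85% fell after the latter. The other members did not pass the test, among them the immediate target TSC22D3 (0.64 ± 0.34, adjusted p = 0.225) and ZBTB16 (1.59 ± 0.49, 0.0594). NR3C1, which encodes the glucocorticoid receptor, was lower by -0.45 ± 0.13 (0.0426). For NR3C1 the call was lost without beta E90 replicates 1 or 2, beta P8 replicate 1, alpha E90 replicate 2 or alpha P8 replicates 1 or 2 (0.0806 to 0.139), and it was not called after median-of-ratios scaling (0.210) or quantile normalization (0.411). For ERN1 the call was lost without beta E90 replicates 1 or 2, beta P8 replicate 1, alpha E90 replicates 1 or 2 or alpha P8 replicates 1 or 2 (0.0743 to 0.163), and it was not called after median-of-ratios scaling (0.162) or quantile normalization (0.213). ERRFI1, a feedback inhibitor of the EGF receptor, stood at 32.7 and 40.8 TPM in beta cells at E90 and 139.9 and 86.6 at P8, but at 25.1 and 25.2 and 30.9 and 26.5 in alpha cells. For ERRFI1 the call was lost without beta E90 replicate 1 (0.0714), alpha E90 replicate 1 (0.0556) or alpha E90 replicate 2 (0.0539). In the thyroid hormone list HR and KLF9 were the 2 members of 15 that rose, and none fell. The receptors THRA (-0.35 ± 0.14, 0.132) and THRB (0.19 ± 0.19, 0.513) were not called. In the circadian clock list 2 of 22 rose, PER2 and BHLHE40, and 2 fell, BHLHE41 and CSNK1E, neither of which was called under the other scalings. For BHLHE40 the call was lost without beta E90 replicates 1 or 2, beta P8 replicate 1, alpha E90 replicate 1 or alpha P8 replicate 1 (0.0511 to 0.0714). For BHLHE41 the call was lost without beta E90 replicates 1 or 2, beta P8 replicate 1, alpha E90 replicates 1 or 2 or alpha P8 replicate 1 (0.0586 to 0.102). For CSNK1E the call was lost without any single library (0.0746 to 0.164). NR3C1 (0.118), ERN1 (0.173), ERRFI1 (0.08203), BHLHE41 (0.313) and CSNK1E (0.311) were not called with all 37 libraries in the fit.

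Some genes that steer cells towards burning fat rose. PDK4, the kinase that closes pyruvate dehydrogenase and so spares glucose, stood at 0.293 and 1.12 TPM in beta cells at E90 and 9.03 and 4.98 at P8, and at 91.2 and 74.8 TPM in alpha cells at E90 and 596 and 332 at P8. Alpha cells held far more of it at both ages, and within each cell type both P8 libraries lay above both E90 libraries (2.32 ± 0.27, adjusted p = 0.00248). CPT1A, which admits long-chain fatty acids into mitochondria, rose by 1.32 ± 0.18 (0.00388), from 7.53 and 7.66 to 15.3 and 16.6 TPM in beta cells and from 34.1 and 20.8 to 92.4 and 81.8 TPM in alpha cells. CPT1B, the isoform typical of muscle, moved in the same direction by 1.35 ± 0.13 (0.001399), from 11.3 and 11.7 to 27.1 and 22.6 TPM and from 24.04 and 21.2 to 76.5 and 69.8 TPM. Of 33 tested genes of fatty acid oxidation and PPAR targets 4 rose, these 3 and BDH1, and 4 fell, among them the electron carrier subunit ETFA (-1.04 ± 0.15, 0.00494), against 1 fall under each of the other scalings and 1 or 2 without any 1 of the 4 E90 libraries or either beta P8 library. The list median was -0.10, against -0.20 over all genes, of which 2.57% rose and 15.7% fell. After median-of-ratios scaling 6.13% of all genes fell, and after quantile normalization 4.85%. BDH1, a ketone body enzyme, rose by 0.72 ± 0.16. For BDH1 the call was lost without beta E90 replicates 1 or 2, beta P8 replicate 1, alpha E90 replicates 1 or 2 or alpha P8 replicate 2 (0.0562 to 0.0947). BDH1 (0.1602) was not called with all 37 libraries in the fit.

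Metallothioneins, small metal-binding proteins induced by zinc and glucocorticoids, included 2 that were called higher. MT1G was at 0 and 0 TPM in beta cells at E90 and 73.9 and 39.1 at P8, and at 0.418 and 2.05 and 8.36 and 12.2 TPM in alpha cells, a rise of 4.10 ± 0.33 (0.000767). It was higher in beta than in alpha cells at P8 and lower at E90. MT2A rose by 2.31 ± 0.40 (0.00861), with 10.1 and 2.84 TPM in beta cells at E90, 21.3 and 13.6 at P8, and 0.387 and 0.947 and 9.47 and 19.7 TPM in alpha cells; when all 37 libraries shared 1 estimate of the spread it was not called (0.224). Near-identical metallothionein copies may share reads, so these levels are uncertain. Their list also holds genes of oxidative defence. Of its 28 tested members 4 rose and 10 fell, against 2.57% of all genes higher and 15.7% lower, and the falls numbered 8 after median-of-ratios scaling, 6 after quantile normalization and 6 without beta E90 replicate 1, while 2 rose without beta E90 replicate 2. Among all genes the falls were 6.13% after median-of-ratios scaling and 4.85% after quantile normalization. The peroxide-removing enzymes PRDX1 (-1.56 ± 0.17, 0.00203) and PRDX3 (-1.37 ± 0.14, 0.001399) and the ferritin light chain FTL (-1.36 ± 0.13, 0.00127) fell, FTL from 767 and 638 to 212 and 278 TPM in beta cells and from 903 and 776 to 371 and 361 TPM in alpha cells.

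**Figure D2:**
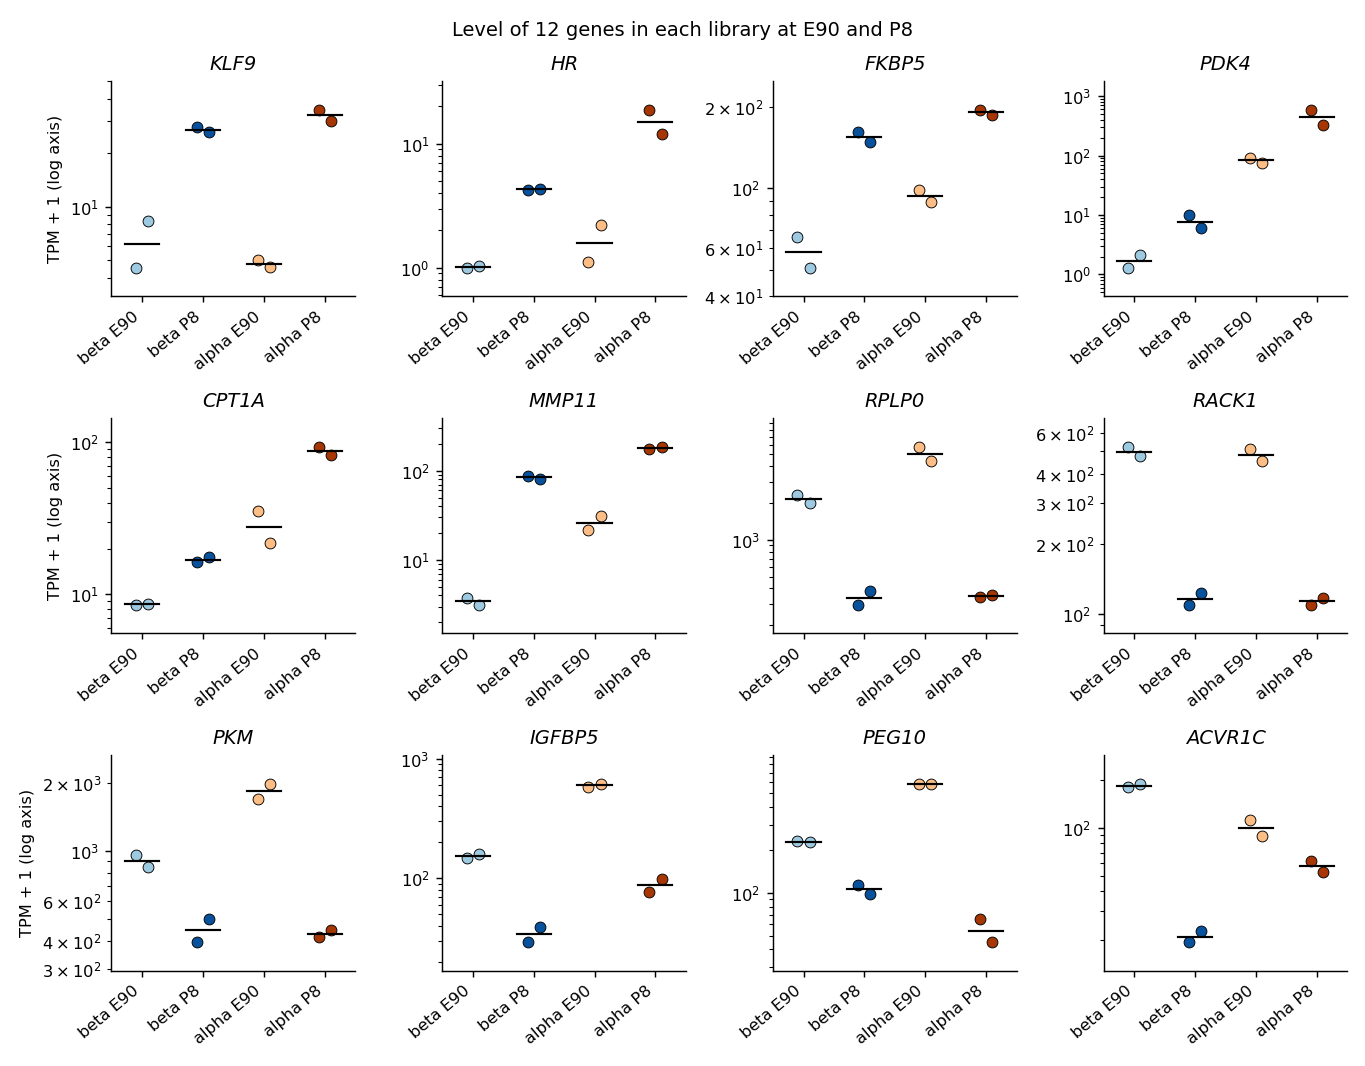
Level of 12 genes (TPM + 1, log axes) in each library; points are single libraries and bars the mean of the logs of a group's 2 libraries. KLF9, HR, FKBP5, PDK4, CPT1A and MMP11 were higher at P8 within each cell type, and RPLP0, RACK1, PKM, IGFBP5, PEG10 and ACVR1C were lower; each of these calls held under all 3 scalings.

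Large rises were also seen outside the acinar and Y-linked lists, and the genes given here were chosen after their values were seen. MMP11, a secreted protease, went from 2.78 and 2.13 to 86.3 and 80.4 TPM in beta cells and from 20.8 and 29.98 to 175 and 185 TPM in alpha cells (3.71 ± 0.15, adjusted p = 4.25e-05). MAMDC2, a proteoglycan, went from 6.22 and 2.07 to 69.1 and 72.3 TPM in beta cells and from 5.44 and 4.12 to 83.02 and 83.2 TPM in alpha cells (3.90 ± 0.26, 0.000304). For both genes the P8 libraries stood clear of the E90 libraries. SPOCK1, another proteoglycan, rose by 2.01 ± 0.21 (0.00179), in beta cells from 10.7 and 8.098 to 40.6 and 36.8 TPM and in alpha cells from 0 and 0.0408 to 3.09 and 3.499 TPM. COCH, a matrix protein best known from the inner ear, was at 4.23 and 0.889 TPM in beta cells at E90 and 66.5 and 117 at P8, while alpha cells stayed at or below 2.84 TPM at both ages. SPTB, the beta chain of spectrin, rose from 1.196 and 3.02 to 35.8 and 37.9 TPM in beta cells and from 4.82 and 7.81 to 11.2 and 20.7 TPM in alpha cells (2.43 ± 0.29, 0.00277). VAV3, a guanine nucleotide exchange factor, was nearly silent in alpha cells at E90 (0 and 0.472 TPM) and reached 37.6 and 15.9 TPM at P8, against 36.8 and 28.2 and 53.05 and 75.9 TPM in beta cells. FAM184B rose by 1.68 ± 0.13 (0.000671) and reached 192 and 206 TPM in alpha cells. With all 37 libraries in the fit SPOCK1 (0.0703) and VAV3 (0.112) were not called.

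Single receptors rose or fell. PRLR, the prolactin receptor, which also binds placental lactogen and is tied to beta cell growth in pregnancy, rose from 58.2 and 66.6 to 91.3 and 119 TPM in beta cells and from 69.7 and 71.5 to 124.3 and 131 TPM in alpha cells (0.79 ± 0.12, 0.00569). The epidermal growth factor receptor EGFR rose by 1.10 ± 0.17 (0.00618), from between 10.4 and 16.9 TPM in the E90 libraries to between 23.5 and 33.4 TPM at P8. Both stood clear of the E90 libraries in all 4 P8 libraries; PRLR was not called with all 37 libraries in the fit (0.0692). Of 47 tested receptors for hormones, nutrients and growth factors 3 rose and 10 fell, against 2.57% of all genes higher and 15.7% lower. The third rise was the fatty acid receptor FFAR4 (1.05 ± 0.30, 0.0491), for which the call was lost without any single library (0.0633 to 0.145). The falls numbered 4 after median-of-ratios scaling, 6 after quantile normalization and 3 to 5 without any 1 of the 4 E90 libraries or beta P8 replicate 1. The shares of all genes that fell were 6.13% after median-of-ratios scaling and 4.85% after quantile normalization. GPR142, a receptor for tryptophan found on islet cells, fell from 15.5 and 12.6 to 2.26 and 2.28 TPM in beta cells and from 17.1 and 19.7 to 10.8 and 8.16 TPM in alpha cells (-1.55 ± 0.19, 0.00305). The receptors of the incretin GLP-1 (GLP1R, 0.85 ± 0.31, 0.0928) and of glucagon (GCGR, 0.45 ± 0.30, 0.317) did not pass the test. FFAR4 (0.1996) was not called with all 37 libraries in the fit.

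Genes of antigen presentation and the interferon response rose in part. B2M, the light chain of class I antigen-presenting molecules, rose from 81.1 and 64.4 to 151 and 152 TPM in beta cells and from 71.4 and 56.7 to 118 and 190 TPM in alpha cells (1.14 ± 0.17, 0.00565). The interferon-induced genes OAS2 (1.37 ± 0.25, 0.0107) and IFI6 (2.67 ± 0.52, 0.0132) rose too, IFI6 unevenly, with 10.9 and 41.99 TPM in the P8 beta libraries and 30.7 and 116 TPM in the P8 alpha libraries. For IFI6, the call was lost without beta E90 replicate 2 (0.0626) or alpha E90 replicate 2 (0.0563). Of the list's 31 tested members 6 rose and 2 fell, IRF7 among them, against 2.57% of all genes higher and 15.7% lower. After median-of-ratios scaling 9 rose and 1 fell, against 4.48% and 6.13% of all genes. Without any 1 of the 4 E90 libraries, beta P8 replicate 2 or alpha P8 replicate 2, 2 to 4 rose. For IRF7 the call was lost without beta E90 replicate 2 (0.0728), alpha E90 replicate 1 (0.0562) or alpha E90 replicate 2 (0.064). The summed level of the immune cell markers was 69.0 to 95.1 TPM at E90 and 60.6 to 158.6 TPM at P8, highest in the P8 alpha libraries, and its part in these rises was not tested. No member of the interferon list was called higher with all 37 libraries in the fit, against 126 of all 17839 genes. There B2M (0.0504), OAS2 (0.0591), IFI6 (0.0916) and IRF7 (0.1204) lost their calls.

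Genes of the translation machinery fell together. Of 46 tested genes for cytosolic ribosomal proteins 43 were lower at P8 and 1 was higher, against 15.7% of all genes lower, and the list median was -1.08. The falls numbered 39 after median-of-ratios scaling, 34 after quantile normalization and at least 39 when any single library was left out, and in 43 genes every P8 library lay below every E90 library. Over all genes 6.13% fell after median-of-ratios scaling and 4.85% after quantile normalization. In 12.6% of all genes every P8 library lay below every E90 library. The summed share of the ribosomal protein genes was 2.69% and 2.59% of all TPM in beta cells at E90 and 1.16% and 1.27% at P8, with 3.68% and 3.07% in alpha cells at E90 and 1.38% and 1.23% at P8. RPLP0, a protein of the ribosomal stalk, fell furthest, from 2338 and 1997 to 292 and 381 TPM in beta cells and from 5795 and 4440 to 339 and 354 TPM in alpha cells (-3.28 ± 0.14, 4.25e-05). RACK1, a scaffold bound to the small ribosomal subunit, fell from 521 and 473 to 109 and 122 TPM in beta cells and from 508 and 453 to 109 and 116 TPM in alpha cells (-2.09 ± 0.10, 5.96e-05). RPL26 (-1.55 ± 0.13), RPS4X (-1.54 ± 0.12) and RPL15 (-1.33 ± 0.091) fell by similar amounts, each with an adjusted p at or under 0.000767. So did the nascent chain factor NACA (-1.38 ± 0.11, 0.000729) and the elongation factor EEF2 (-1.24 ± 0.12, 0.00148). The single rise was an identifier named RPL19 at 3.78 and 7.36, 11.7 and 5.31, 5.47 and 2.48 and 19.3 and 27.8 TPM in the same order of groups, far below its relatives, which shares its symbol with another identifier. For RPL19 the call was lost without beta E90 replicates 1 or 2, beta P8 replicate 1, alpha E90 replicate 2 or alpha P8 replicate 2 (0.0545 to 0.106). Ribosomal protein genes have many near-identical copies in the genome, so single values are uncertain. RPL19 (0.353) was not called with all 37 libraries in the fit. In that fit 37 members fell, against 1020 of all 17839 genes.

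Many nuclear genes of mitochondrial respiration were lower as deposited, and fewer under the other scalings. Of 44 tested genes 25 fell and none rose as deposited, 8 fell after median-of-ratios scaling and 6 after quantile normalization, and 7 to 11 fell without any 1 of the 4 E90 libraries. Over all genes 15.7% fell as deposited, 6.13% after median-of-ratios scaling and 4.85% after quantile normalization. Subunits of cytochrome oxidase, COX7C (-1.18 ± 0.11, 0.00118) and COX6C (-1.13 ± 0.17, 0.00596), and of the ATP synthase, ATP5F1A (-0.99 ± 0.14, 0.00421) and ATP5PF (-0.89 ± 0.14, 0.00641), led the list. COX7C stood at 299 and 273 TPM in beta cells at E90 and 117 and 110 at P8, and at 264 and 212 and 118 and 110 TPM in alpha cells. The 13 genes encoded by the mitochondrion itself gave no call of a fall, and 1 was called higher, MT-ND5 (0.73 ± 0.17, 0.0254). For MT-ND5 the call was lost without beta E90 replicates 1 or 2, beta P8 replicate 1, alpha E90 replicates 1 or 2 or alpha P8 replicate 1 (0.0534 to 0.112). Their summed share was 7.48% and 8.49% in beta cells at E90 and 8.73% and 7.23% at P8, which overlap, with 9.61% and 10.9% in alpha cells at E90 and 15.9% and 12.8% at P8. COX7C (0.0709) and COX6C (0.0682) were not called with all 37 libraries in the fit. In that fit 10 nuclear genes of the list fell, against 1020 of all 17839 genes.

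Some genes of glycolysis were lower too. PKM, pyruvate kinase, fell from 960 and 849 to 393 and 500 TPM in beta cells and from 1703 and 1980 to 414 and 444 TPM in alpha cells (-1.56 ± 0.12, 0.000734). The cell types differed at E90, with alpha cells higher, and lay side by side at P8. Of 27 tested genes of glucose sensing and glycolysis 10 fell, against 15.7% of all genes, and none rose, with 5 falls after median-of-ratios scaling, 4 after quantile normalization and 5 or 6 without any 1 of the 4 E90 libraries. Median-of-ratios scaling gave falls in 6.13% of all genes and quantile normalization in 4.85%. GAPDH (-0.93 ± 0.11, 0.00245), TPI1 (-1.08 ± 0.15, 0.00425) and GPI (-0.85 ± 0.11, 0.00388) also fell. The glucose transporter SLC2A2 (0.16 ± 0.23, 0.659) and the beta cell glucose phosphatase G6PC2 (0.77 ± 0.28, 0.090) did not pass the test over both cell types. Of 20 tested beta cell markers, both genes among them, none was called in beta cells, where 0.741% of all genes rose and 2.93% fell. In alpha cells 3 of these markers fell, against 6.88% of all genes. The marker list had a median of 0.22 in beta cells and -0.39 in alpha cells.

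Enzymes of cholesterol synthesis were among the genes that fell. IDI1 (-1.19 ± 0.12, 0.001399) and FDFT1 (-1.11 ± 0.12, 0.00179) were each lower in all 4 P8 libraries than in any E90 library. FDFT1, the squalene synthase, stood at 142 and 118 TPM in beta cells at E90 and 57.8 and 64.5 at P8, and at 149 and 143 and 59.4 and 70.9 TPM in alpha cells. In the list of 31 tested sterol and fatty acid synthesis genes 7 fell, against 15.7% of all genes, and 1 rose, ACLY, and IDI1 and FDFT1 fell under all 3 scalings. For ACLY the call was lost without beta E90 replicates 1 or 2, beta P8 replicate 1, alpha E90 replicates 1 or 2 or alpha P8 replicate 1 (0.0552 to 0.108). In the list 4 fell under each of the other scalings and 4 without beta E90 replicate 1, beta P8 replicate 1 or either alpha E90 library. Of all genes 6.13% fell after median-of-ratios scaling and 4.85% after quantile normalization. The regulators SREBF1 (-0.47 ± 0.20, 0.143) and SREBF2 (-0.33 ± 0.16, 0.191) were not called. ACLY (0.1996) was not called with all 37 libraries in the fit.

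**Figure D3:**
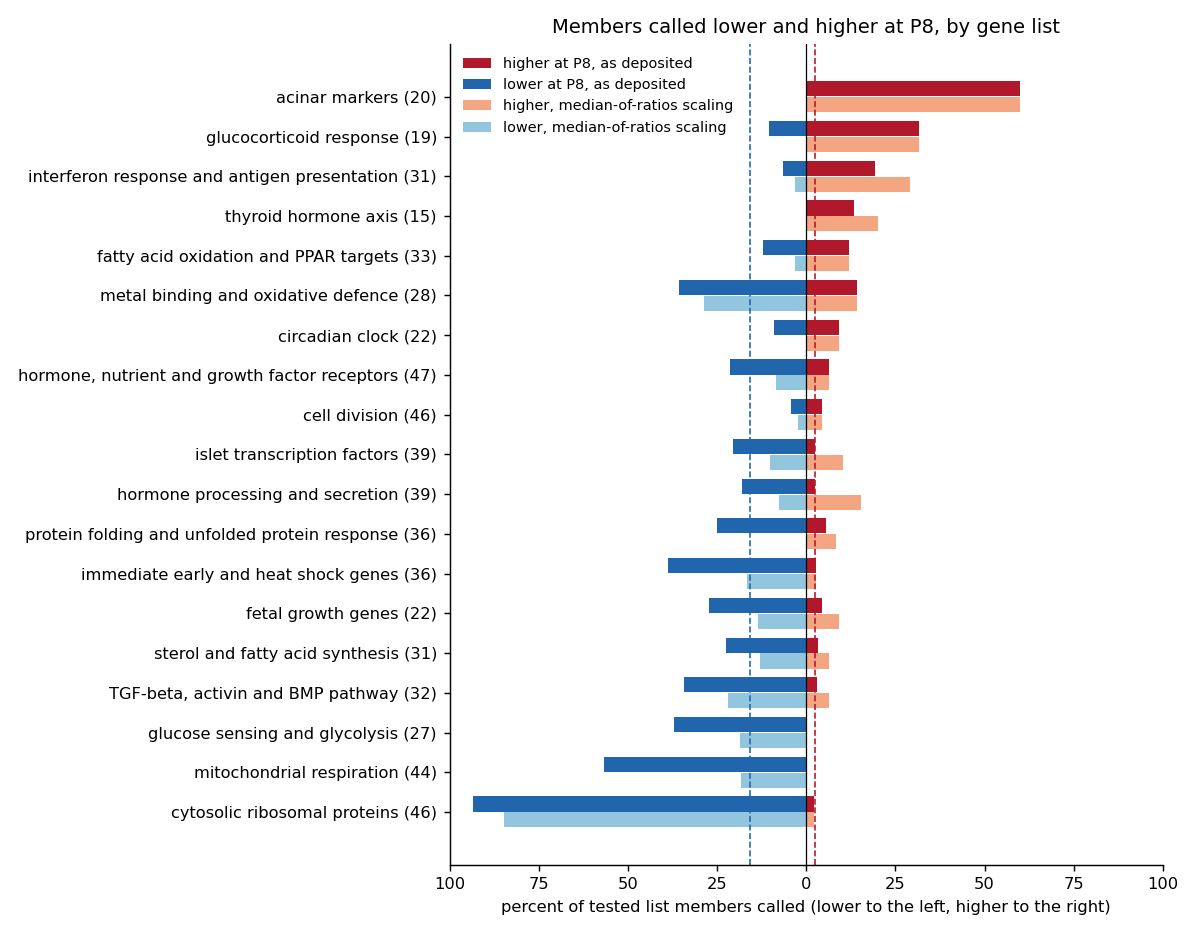
Percent of the tested members called in 19 of the gene lists (number tested in brackets), shown as lower (left) and higher (right) at P8, as deposited (dark) and after median-of-ratios scaling (light); the dashed lines mark the shares over all genes as deposited, 15.7% lower and 2.57% higher. Of the lists drawn, ribosomal proteins stand furthest to the left under both scalings, and acinar markers and glucocorticoid response genes furthest to the right as deposited.

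Some genes of fetal growth were lower at P8. IGFBP5, a binding protein of insulin-like growth factors, fell from 146 and 157.6 to 28.1 and 38.1 TPM in beta cells and from 578 and 616 to 75.6 and 97.8 TPM in alpha cells (-2.48 ± 0.14, 0.000107). PEG10, a paternally expressed imprinted gene, fell from 230 and 225.6 to 113.1 and 97.6 TPM in beta cells and from 583 and 581 to 64.3 and 44.1 TPM in alpha cells (-2.27 ± 0.13, 0.0001701). CDKN1C, an imprinted inhibitor of cyclin-dependent kinases, went from 14.7 and 18.1 to 6.07 and 3.35 TPM in beta cells and from 4.78 and 6.59 to 0.156 and 0 TPM in alpha cells (-2.13 ± 0.26, 0.00302). Of the 22 tested members of the list 6 fell, against 15.7% of all genes, and 1 rose, LIN28A (1.05 ± 0.19; the call was lost without beta E90 replicate 1 (0.055)), and 3 fell and 2 rose under each of the other scalings. Without either beta E90 library, beta P8 replicate 1, alpha E90 replicate 2 or alpha P8 replicate 1, 3 fell. Over all genes 6.13% fell and 4.48% rose after median-of-ratios scaling, and 4.85% fell and 4.24% rose after quantile normalization. The growth factor IGF2 was called in 1 of the cell types. It fell in alpha cells, from 1611 and 2172 to 437 and 726 TPM (-1.73 ± 0.30, adjusted p = 0.0188 in the alpha contrast, where 1.72% of genes rose and 6.88% fell), and stood at 795 and 1077 and 981 and 1404 TPM in beta cells (0.34 ± 0.30, 0.542 in the beta contrast, where 0.741% rose and 2.93% fell). The alpha call of IGF2 was not made after quantile normalization (0.0555). In alpha cells the call was lost without alpha E90 replicate 1 (0.0939), alpha E90 replicate 2 (0.114) or alpha P8 replicate 1 (0.0691), and the difference between the cell types was not called (0.235). LIN28A (0.415) was not called with all 37 libraries in the fit. In that fit 3 members fell, against 1020 of all 17839 genes.

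Receptors of the TGF-beta and activin family were among the genes that fell. ACVR1C, the receptor also called ALK7, fell from 178.5 and 188 to 18.3 and 21.6 TPM in beta cells and from 111.7 and 88.6 to 61.3 and 52.2 TPM in alpha cells (-1.97 ± 0.13, 0.000246). TGFBR1 (-1.31 ± 0.18, 0.00398) and the coreceptor TGFBR3 (-1.31 ± 0.22, 0.00744) fell, as did ID2 (-1.46 ± 0.21, 0.00504), a target gene of the BMP branch, from between 10.8 and 17.3 TPM at E90 to between 2.35 and 6.06 TPM at P8. Of 32 tested genes of the pathway 11 fell and 1 rose, GDF15, against 15.7% of all genes lower and 2.57% higher. The falls numbered 7 after median-of-ratios scaling (6.13% of all genes) and 5 after quantile normalization (4.85%). They numbered 6 or 7 without any 1 of the 4 E90 libraries, beta P8 replicate 1 or alpha P8 replicate 1. For GDF15 the call was lost without any single library (0.0536 to 0.149). The receptor ACVR2A (-0.61 ± 0.30, 0.192) and SMAD7 (0.67 ± 0.22, 0.0696), which the pathway induces to restrain itself, were not called. Among 37 tested Notch and Wnt genes 6 fell as deposited, a share near the 15.7% of all genes, and none rose, 2 fell under each of the other scalings, and none fell without any 1 of the 4 E90 libraries. GDF15 (0.173) was not called with all 37 libraries in the fit.

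Few cell division genes were called. Of 46 tested members 2 rose, MKI67 and CENPE, and 2 fell, CCNE1 and PCNA, against 2.57% of all genes higher and 15.7% lower. CENPE, a motor protein of the mitotic spindle, went from 4.31 and 4.07 to 9.44 and 9.04 TPM in beta cells and from 2.88 and 2.04 to 9.53 and 10.04 TPM in alpha cells (1.32 ± 0.21, 0.006402). MKI67, the usual marker of cycling cells, was at 7.68 and 4.28 and 12.1 and 8.84 TPM in beta and 4.601 and 4.74 and 9.79 and 14.7 TPM in alpha cells at the 2 ages (0.97 ± 0.25, 0.03298). For MKI67 the call was lost without beta E90 replicates 1 or 2, beta P8 replicate 1, alpha E90 replicates 1 or 2 or alpha P8 replicate 2 (0.0577 to 0.111). The S-phase genes CCNE1 (-1.18 ± 0.22, 0.0113) and PCNA (-0.83 ± 0.21, 0.0293) went down. For CCNE1 the call was lost without beta E90 replicate 1 (0.050), beta E90 replicate 2 (0.0555) or alpha E90 replicate 2 (0.0512). For PCNA the call was lost without beta E90 replicates 1 or 2, beta P8 replicates 1 or 2, alpha E90 replicate 2 or alpha P8 replicate 1 (0.0638 to 0.118). The other 42, TOP2A (0.097 ± 0.20, 0.763) and CDK1 (0.21 ± 0.38, 0.734) among them, did not pass the test. The D-type cyclins parted. CCND3 fell from 106.96 and 96.4 to 28.03 and 43.4 TPM in beta cells and from 69.01 and 84.1 to 39.7 and 53.8 TPM in alpha cells (-1.11 ± 0.17, 0.00643). CCND2, which beta cells need for growth after birth in mice, was higher by 1.09 ± 0.24 (0.0195). For CCND2 the call was lost without beta E90 replicate 2, beta P8 replicate 1, alpha E90 replicates 1 or 2 or alpha P8 replicate 2 (0.0509 to 0.075). CENPE (0.3699), MKI67 (0.268), PCNA (0.295) and CCND2 (0.336) were not called with all 37 libraries in the fit.

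The islet hormones themselves did not pass the test, apart from 2 of low level. INS was at 264300 and 267000 TPM in beta cells at E90 and 358400 and 320200 at P8 (0.35 ± 0.73 in beta cells, adjusted p = 0.823), and GCG at 73730 and 67590 TPM in alpha cells at E90 and 100600 and 97360 at P8 (0.49 ± 0.34 in alpha cells, 0.393). For both, the P8 libraries of the cell type that makes the hormone lay above its E90 libraries. The standard errors come from the spread within all 4 groups, including those of the other cell type, where the hormone is a trace. In alpha cells INS made up 0.113% and 0.0512% of all TPM at E90 and 0.0265% and 0.150% at P8. These p-values therefore do not measure the spread within the hormone's own cell type alone. TAC1, the precursor of substance P, was present in beta cells at E90 (20.02 and 34.3 TPM) and listed at 0 in all 4 P8 libraries (0.00246). PYY rose by 1.82 ± 0.36 (0.0133), mainly in alpha cells, from 5.73 and 2.12 to 24.9 and 54.1 TPM. For PYY the call was lost without beta E90 replicate 1 (0.0602) or beta E90 replicate 2 (0.0571). PPY, pancreatic polypeptide, stood at 327 and 154 TPM in alpha cells at E90 and 2438 and 1081 at P8 (2.85 ± 0.85, adjusted p = 0.0786), and at 282 and 92.9 and 11.6 and 70.98 TPM in beta cells (-2.44 ± 0.85, 0.142). UCN3, a peptide that marks mature beta cells in mice, was at 845 and 608 TPM at E90 and 616 and 639 at P8 in beta cells (-0.19 ± 0.23, 0.668). Quantile normalization, which gives all libraries the same distribution of values, set the difference of INS to 0 and turned that of GCG to -0.67. PYY (0.0992) was not called with all 37 libraries in the fit.

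Of 39 tested islet transcription factors 8 were lower and 1 higher, near the shares over all genes (15.7% lower and 2.57% higher). The balance moved with the scaling, as it did over all genes. After median-of-ratios scaling 4 were lower and 4 higher, against 6.13% and 4.48% of all genes. After quantile normalization 2 were lower and 8 higher, against 4.85% and 4.24%. Without any 1 of the 4 E90 libraries, beta P8 replicate 1 or alpha P8 replicate 1, 2 to 5 were lower. HNF4A, mutated in a monogenic diabetes, fell under all 3 scalings, from 70.9 and 71.3 to 40.5 and 43.1 TPM in beta cells and from 82.7 and 76.04 to 45.5 and 46.4 TPM in alpha cells (-0.76 ± 0.10, 0.00388). NEUROG3, the factor that starts the endocrine lineage, was still detected at E90 and also fell under all 3, from 15.4 and 18.3 to 7.47 and 9.36 TPM in beta cells and from 6.15 and 9.64 to 1.13 and 0.457 TPM in alpha cells (-1.62 ± 0.25, 0.00569). ST18 rose by 0.50 ± 0.11 (0.0206). For ST18 the call was lost without beta E90 replicates 1 or 2, alpha E90 replicates 1 or 2 or alpha P8 replicate 1 (0.0515 to 0.0812). NEUROD1 (-0.76 ± 0.15, 0.0141) was lower as deposited and after median-of-ratios scaling and not called after quantile normalization (0.181). For NEUROD1 the call was lost without beta E90 replicate 1 (0.0707), beta E90 replicate 2 (0.0563) or alpha E90 replicate 2 (0.0608). MAFA, the late beta cell factor, stood at 24.97 and 21.6 TPM in beta cells at E90 and 48.4 and 22.1 at P8, which overlap (0.48 ± 0.43, adjusted p = 0.544). PDX1 was at 149 and 147 and 111.9 and 168.99 TPM in beta cells and was not called. NKX6-1 (0.41 ± 0.13, 0.0701) was not called as deposited but was called higher after median-of-ratios scaling (0.0125) and after quantile normalization (0.00853). NEUROG3 (0.207), NEUROD1 (0.0831) and ST18 (0.235) were not called with all 37 libraries in the fit. In that fit 1 member was lower, against 1020 of all 17839 genes.

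Hormone processing and secretion showed the same dependence. Of 39 tested genes 7 fell and 1 rose as deposited, near the shares over all genes (15.7% lower and 2.57% higher). After median-of-ratios scaling 3 fell and 6 rose, against 6.13% and 4.48% of all genes. After quantile normalization 2 fell and 9 rose, against 4.85% and 4.24%. Without any 1 of the 4 E90 libraries or beta P8 replicate 1, 1 to 4 fell. PAM, the enzyme that amidates peptide hormones, fell under all 3 scalings, from 370 and 334 to 182 and 251 TPM in beta cells and from 224 and 225.2 to 89.4 and 106 TPM in alpha cells (-0.96 ± 0.13, 0.00398). The voltage-gated calcium channel subunit CACNA1C was the single rise (0.70 ± 0.16, 0.0208). For CACNA1C the call was lost without beta E90 replicates 1 or 2, alpha E90 replicate 1 or alpha P8 replicate 2 (0.0521 to 0.0869). The prohormone convertases PCSK1 (-0.67 ± 0.39, 0.256) and PCSK2 (0.087 ± 0.12, 0.6304) and the channel subunit ABCC8 (0.26 ± 0.15, 0.252) were not called. In the list of protein folding and the unfolded protein response 9 of 36 fell and 2 rose as deposited, none fell after the other scalings, and at most 3 fell without any 1 of the 4 E90 libraries, beta P8 replicate 1 or alpha P8 replicate 1. Without alpha P8 replicate 2, 5 fell. In the protein folding list 3 genes rose after median-of-ratios scaling and 5 after quantile normalization, against 4.48% and 4.24% of all genes. The median of that list was -0.28 as deposited, -0.052 after median-of-ratios scaling and 0.059 after quantile normalization. CACNA1C (0.0972) was not called with all 37 libraries in the fit.

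Genes that respond within minutes to stimulation or to handling of tissue were lower in part. EGR2 fell from 10.03 and 8.63 to 1.36 and 1.502 TPM in beta cells and from 21.3 and 36.1 to 7.498 and 7.18 TPM in alpha cells (-1.94 ± 0.22, 0.00246). EGR3 fell by a similar amount (-2.57 ± 0.45, 0.00894). For EGR3 the call was lost without beta E90 replicate 1 (0.054). Of 36 tested immediate early and heat shock genes 14 fell and 1 rose, FOSB, against 15.7% of all genes lower and 2.57% higher. The falls numbered 6 after median-of-ratios scaling (6.13% of all genes) and 4 after quantile normalization (4.85%). They numbered 6 to 9 without either beta E90 library, beta P8 replicate 1, alpha E90 replicate 2 or alpha P8 replicate 1. The list median was -0.21, near the -0.20 of all genes, and 0.017 after median-of-ratios scaling. Of the others FOS (0.058 ± 0.12, 0.769) was not called. For FOSB the call was lost without beta E90 replicate 1 (0.0534). The mitochondrial chaperone HSPD1 (-1.06 ± 0.13, 0.00303) and DNAJA1 (-0.76 ± 0.095, 0.00305) fell under all 3 scalings. EGR2 (0.126), EGR3 (0.0992), DNAJA1 (0.12) and FOSB (0.896) were not called with all 37 libraries in the fit. In that fit 4 members fell, against 1020 of all 17839 genes.

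The 12 largest falls among genes with a mean of at least 10 TPM at E90 held few genes of the lists. LGALS2, a galectin, fell from 44.05 and 28.7 to 0 and 0 TPM in beta cells and from 9.58 and 12.2 to 2.62 and 0 TPM in alpha cells (-3.91 ± 0.41, 0.00178). SCARA5, a ferritin receptor, fell from 60.2 and 69.8 to 10.03 and 22.1 TPM and from 40.3 and 49.5 to 0.4603 and 1.81 TPM (-3.27 ± 0.29, 0.00112). RBP2, a retinol-binding protein best known from the gut, fell from 74.3 and 126 to 9.25 and 15.3 TPM and from 15.7 and 39.7 to 0.524 and 2.69 TPM (-3.19 ± 0.39, 0.00302). In each of these 3 genes the P8 libraries lay below all E90 libraries. PLK2, a stress-responsive kinase, fell by -3.06 ± 0.25 (0.000767), and MFAP2, a microfibril protein, from 68.7 and 48.3 to 10.8 and 10.8 TPM in beta cells and from 14.5 and 10.7 to 0 and 1.82 TPM in alpha cells (-2.66 ± 0.33, 0.00305). NCMAP, a myelin protein, showed the largest fall of the 12 (-4.27 ± 0.59, 0.00425) but varied within groups, at 55.8 and 12.4 TPM in beta and 41.1 and 13.6 TPM in alpha cells at E90. NCMAP (0.0616) was not called with all 37 libraries in the fit.

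Genes of the exocrine pancreas gave the largest rises. CPB1, a pancreatic carboxypeptidase, was at 0 and 0.632 TPM in beta and 0.0576 and 0.0684 TPM in alpha cells at E90 and at 855 and 315 and 455 and 177.8 TPM at P8 (8.37 ± 0.39, 5.95e-05). AMY2A, amylase (7.85 ± 0.60), the lipase relative PNLIPRP1 (7.37 ± 0.60), CEL (5.53 ± 0.44) and CPA1 (4.46 ± 0.45) rose in the same libraries, each with an adjusted p of at most 0.00157. Amylase has 4 identifiers of 1 symbol in the table, and reads may be split among them. Of 20 tested acinar markers 12 rose and none fell, against 2.57% of all genes higher and 15.7% lower. The counts were the same under the other 2 scalings, and between 10 and 15 rose when single libraries were left out. Of all genes 4.48% rose after median-of-ratios scaling and 4.24% after quantile normalization. The transcription factors of the acinar lineage PTF1A (0.97 ± 0.62, 0.3004) and RBPJL (1.75 ± 0.72, 0.128) were not called. RNASE1, PDIA2, SERPINI2 and PRSS3, which the acinar cell also makes, rose outside the list. The highest acinar sum, 17500 TPM, was 1.75% of the TPM of beta P8 replicate 1. This sum covers 21 of the 31 listed markers and none of the genes outside the list. CTRB2, CELA3A and REG1B rose outside the list as well, so the sum is a partial measure of acinar signal. PDIA2 (0.121) was not called with all 37 libraries in the fit.

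Markers of other neighbours did not rise in this way. Of 19 tested duct markers 4 fell and none rose, of 12 neural and Schwann cell markers 4 fell, of 16 mesenchyme markers FN1 fell and SPARC rose, of 17 immune markers CD68 fell, and none of 13 endothelial markers was called. Over all genes 15.7% fell and 2.57% rose. The immune list had a median of 0.43, against -0.20 over all genes, at -0.038 in beta cells and 0.74 in alpha cells. In the alpha contrast 1 immune marker was called higher, against 1.72% of all genes. The neural markers that fell, S100B, ERBB3, CNP and MBP, fell under all 3 scalings, while SOX10 (0.57 ± 0.41, 0.356), which defines Schwann cells, was not called. For S100B the call was lost without beta E90 replicate 1 (0.0562), beta E90 replicate 2 (0.0558) or alpha E90 replicate 1 (0.0516). For ERBB3 the call was lost without beta E90 replicate 1 (0.0641), beta E90 replicate 2 (0.0603) or alpha E90 replicate 2 (0.0624). For FN1 the call was lost without beta E90 replicate 1 (0.0702) or beta E90 replicate 2 (0.0666). For SPARC the call was lost without beta E90 replicate 1, beta P8 replicates 1 or 2, alpha E90 replicates 1 or 2 or alpha P8 replicate 1 (0.0603 to 0.101). For CD68 the call was lost without beta E90 replicates 1 or 2, beta P8 replicate 1 or alpha E90 replicates 1 or 2 (0.0514 to 0.0805). HBQ1, a globin gene, was at 3.06 and 4.59 TPM in beta and 14.3 and 8.67 TPM in alpha cells at E90 and listed at 0 in all P8 libraries, while HBB (-0.66 ± 0.72, 0.553) was not called. All 5 Y-linked transcripts tested were called higher at P8, DDX3Y by 3.29 ± 0.17, from 4.66 and 6.47 to 50.7 and 68.03 TPM in beta cells. The X-linked relatives DDX3X (-1.26 ± 0.13, 0.00186), EIF1AX (-0.98 ± 0.16, 0.00734) and USP9X (-0.77 ± 0.13, 0.00774) fell, whereas KDM5C (-0.17 ± 0.14, 0.417) was not called. KDM6A has 2 identifiers. The more abundant fell (-0.72 ± 0.18, 0.0280) but was not called after median-of-ratios scaling (0.0764) or quantile normalization (0.116). The other rose (3.31 ± 0.21, 0.000250), from between 1.13 and 2.61 TPM at E90 to between 16.1 and 39.4 TPM at P8. An identifier named EIF2S3 rose from 3.45 and 4.67 to 64.3 and 89.9 TPM in beta cells and from 5.86 and 6.06 to 98.4 and 94.3 TPM in alpha cells, the pattern of the Y-linked transcripts; the gene has relatives on both sex chromosomes, and which copy this is could not be read from the table. CD68 (0.162), SPARC (0.591) and EIF2S3 (0.0702) were not called with all 37 libraries in the fit.

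Beta and alpha cells were also tested apart. Tested within 1 cell type, 565 genes were called in beta cells (3.67%; 114 higher and 451 lower) and 1323 in alpha cells (8.60%; 264 higher and 1059 lower). The beta count was 26 or 35 without 1 of the beta E90 libraries and 57 without beta P8 replicate 1, and it fell to 1.05% of genes without either alpha E90 library. The alpha count lay between 47 and 514 without any 1 of the 4 E90 libraries or either alpha P8 library. No gene of 15391 was called for a difference between the cell types in limma (0%), with 1478 at an unadjusted p below 0.05, and the smallest adjusted p was 0.0610. In the alternatives 6 were called with a pseudocount of 0.1, 4 with all 37 libraries in the fit, up to 3 when a single library was left out (without alpha P8 replicate 1) and 8 with libraries of adjacent title numbers as a block. The sign was the same in both cell types for 68.6% of all genes and for 98.6% of those called over both, a share that the choice of called genes helps to set. The genes nearest to a call may serve as description. KCNJ3, a potassium channel subunit, was at 24.8 and 29.4 TPM in beta cells at E90 and 13.8 and 12.4 at P8, and at 8.13 and 7.41 and 34.8 and 29.7 TPM in alpha cells (difference of the changes -2.91 ± 0.30, 0.06103). ACVR1C fell more in beta cells (-2.34 ± 0.25, 0.06103) and PEG10 more in alpha cells (2.32 ± 0.27, 0.0775), both falling in both. GADD45G, a growth arrest gene, was at 33.9 and 38.3 and 134 and 106 TPM in beta cells and at 37.9 and 61.9 and 27.3 and 24.5 TPM in alpha cells (2.58 ± 0.35, 0.118). For KCNJ3, ACVR1C and PEG10 the difference was called with the block (0.0289 each).

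**Figure D4:**
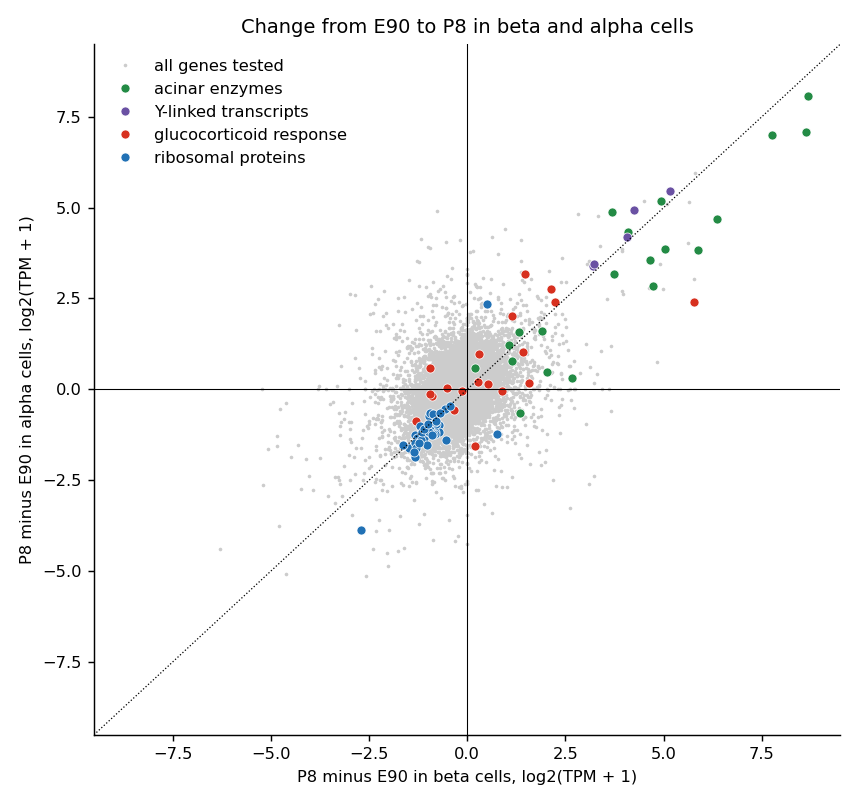
P8 minus E90 difference in beta cells (horizontal) and alpha cells (vertical), on the log2(TPM + 1) scale, for all 15391 genes (grey) and 4 gene lists (coloured); each point is 1 gene and the dotted line marks equal change. Ribosomal proteins lie below 0 in both cell types except 2 points, and Y-linked transcripts lie between 3.20 and 5.46 in both.

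The same direction was asked of 15 libraries that the comparison does not use, P22 against E70 in beta and alpha cells. In these, both ages held libraries with high Y-linked level (6 of 10 at E70 and 2 of 5 at P22), and the acinar sums overlapped, at 282 to 8380 TPM at E70 and 292 to 38886 TPM at P22. Of 16651 genes 429 were higher at P22 (2.58%) and 2647 lower (15.9%), 3076 in all (18.5%). The 393 genes that rose from E90 to P8 and were tested here had the same sign in 73.3%, against 56.2% of all genes with a positive difference, and 106 of them (27.0%) were called in the same direction, against 6.35%. Of the 2407 falls 92.3% had the same sign, against 79.5%, and 1179 (49.0%) were called, against 24.6%. With the Y-linked level as a covariate, an alternative chosen after seeing the data, 100 and 1228 were called. Without alpha P22 replicate 2 the count of all calls was 1918.

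Genes named above were followed in these libraries. KLF9 (1.73 ± 0.20, adjusted p = 9.996e-05), FKBP5 (1.13 ± 0.16, 0.000409), HR (1.63 ± 0.25, 0.000626), PDK4 (2.62 ± 0.33, 0.000185), CPT1A (1.29 ± 0.29, 0.00607) and CPT1B (1.03 ± 0.18, 0.00118) rose, and PER2 (0.29 ± 0.16, 0.232) was not called. MMP11 (2.21 ± 0.32), MAMDC2 (3.61 ± 0.36), SPTB (3.04 ± 0.24) and PRLR (1.65 ± 0.21) also rose. B2M rose further (2.83 ± 0.30, 6.42e-05), and 24 of 31 members of the interferon list rose and none fell. On the other side RPLP0 (-1.59 ± 0.20), RACK1 (-1.13 ± 0.20), PKM (-1.0 ± 0.15), IGFBP5 (-2.29 ± 0.21), PEG10 (-2.46 ± 0.35) and ACVR1C (-3.20 ± 0.41) fell, and 28 of 46 ribosomal protein genes fell. Among acinar genes CPB1 (7.27 ± 1.07, 0.000436) and AMY2A (7.59 ± 1.08, 0.000357) rose, while CPA1 (-0.50 ± 1.24, 0.8303) and CEL (1.0 ± 1.2, 0.6203) were not called. The Y-linked transcripts were not called, DDX3Y at -0.22 ± 0.83 (0.895). EGR2 (1.49 ± 0.74, 0.185) and CENPE (-1.52 ± 0.44, 0.0258) had the opposite sign from the birth step, CENPE called. Of 36 immediate early and heat shock genes 8 were higher at P22 and 1 lower, with a median of 0.93. Of 46 cell division genes none was higher and 9 were lower, with a median of -0.62. From E90 to P8 the medians of these lists were -0.21 and 0.20, of the opposite sign. Over all genes 2.58% were higher at P22 and 15.9% lower. MAFA, not called from E90 to P8, was higher at P22 than at E70 (1.88 ± 0.22, 0.000109).

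**Figure D5:**
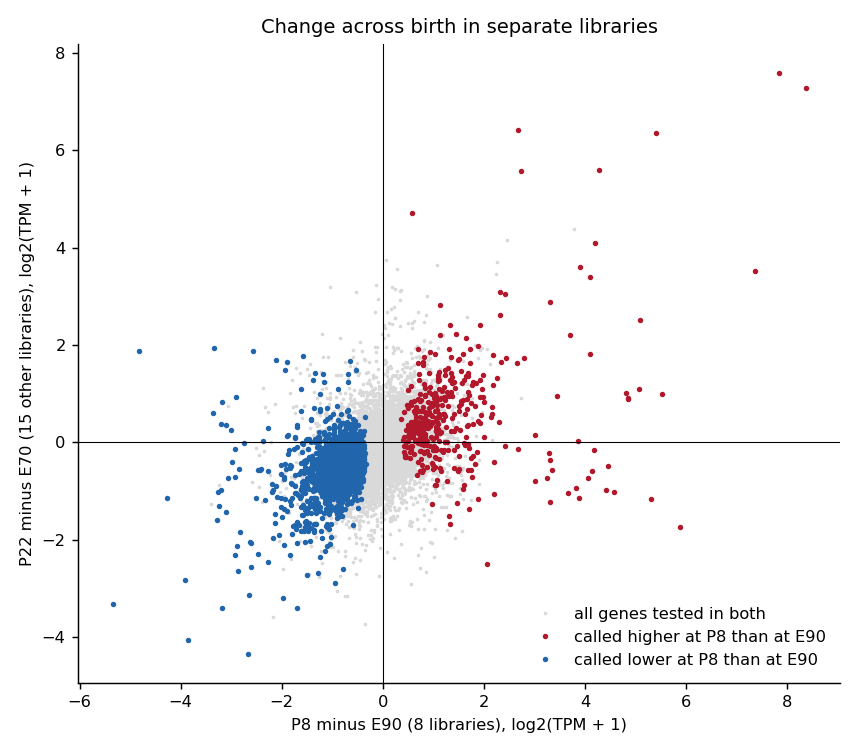
Difference P22 minus E70 in 15 other libraries (vertical) against P8 minus E90 (horizontal), on the log2(TPM + 1) scale; each point is 1 gene, with genes called higher (red) and lower (blue) at P8. Of the blue points 92.3% lie below 0 on the vertical axis, and of the red points 73.3% above it.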

How the data were processed

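The authors' deposited table holds TPM for 22630 genes in 37 libraries, quantified with Salmon 0.11.3 per the submitters' processing notes. The genome build and annotation were not given in the sources used here. Each column sums to 1000000, so sequencing depth is unknown and no counting error can be given. Symbols are those of the table (18624 genes), and 168 more came from an Ensembl name list; of identifiers sharing a symbol, the one with the highest mean TPM was used.

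Genes with at least 1 TPM in at least 2 of the 8 libraries (15391) were fitted in limma 3.58.1 (R 4.3.3) on log2(TPM + 1), with 1 mean per group, 4 residual degrees of freedom and eBayes(trend=TRUE). Contrasts were P8 minus E90 over both cell types with equal weight, in each, and their difference, with Benjamini-Hochberg adjustment over all genes and calls below 0.05. P22 against E70 was fitted alike in 15 other libraries (11 residual degrees of freedom). Lists are described by counts and medians, with no set test. The rule for named genes took the 12 called genes that rose most and the 12 that fell most, at a mean of 10 TPM or more at the higher age. It also took the 4 called genes with the smallest adjusted p in every list, the hormones and transcription factors, and the 3 smallest p each way for the difference; not all are printed, and other names were chosen after their values were seen. The members and lists were chosen with earlier results of these data known. The median of ratios used 14019 genes above 0 in all 8 libraries. On simulated data of 15391 genes for the comparison over both cell types, 82% of changes of 1 on the log2 scale and 96% of changes of 2 were recovered among 200 changed genes, and 16 unchanged genes were called. The changed genes were drawn from those with a mean level above about 10 TPM, with as many rises as falls. The noise was independent between libraries, and the median gene was not shifted. These rates therefore do not describe low genes or the deposited scaling. As alternatives the fit was repeated with 0.1 as the pseudocount, without the filter, at 5 TPM, after other scalings, with hormone and mitochondrial genes removed, with all 37 libraries, with array weights, with a pair block, as an additive model and without each library in turn. Some results were left out and are not reported here.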

Additional observations from a re-analysis of the deposited data

How the results depend on the processing

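The share of tested genes called over both cell types (18.2%, 2807 genes) was 10.6% after median-of-ratios scaling, 9.09% after quantile normalization and 6.42% with all 37 libraries in the fit, and lay between 5.41% and 20.04% when single libraries were left out. The beta share (3.67%) was 1.58% with no filter, 1.58% after median-of-ratios scaling, 1.79% after quantile normalization, 2.21% without hormone and mitochondrial genes, 0.662% with all 37 libraries and 0.169% to 5.25% without single libraries. The alpha share (8.60%) was 4.61% after quantile normalization, 1.63% with all 37 libraries and 0.305% to 9.89% without single libraries. For the difference between cell types, 6 genes (0.0390%) were called with a pseudocount of 0.1, 4 (0.0224%) with all 37 libraries, 8 (0.0520%) with the pair block and 0 to 3 (0.0195%) without single libraries. For P22 against E70 (18.5%, 3076 genes) the share was 11.4% after median-of-ratios scaling, 11.6% after quantile normalization and 11.5% (without alpha P22 replicate 2) to 18.4% without single libraries. Leaving out a library leaves fewer samples, and the cause of the other changes was not tested.

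The labels do not say that beta and alpha libraries of adjacent title numbers are paired. The correlation of deviations within such pairs was 0.0493 at E90 and 0.11 at P8. The consensus estimate of limma, which the block fit used, was higher, at 0.181. With these pairs as a replicate block 2115 genes were called over both cell types (267 higher and 1848 lower), 588 in beta and 1326 in alpha cells. In the interferon list 3 genes rose with the block, against 6 without it.

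Of the single results, 134 were called, and 79 of these were called under every alternative that gave a value. With all 37 libraries in the fit 46 lost their call. No called result changed sign. Quantile normalization set the difference of INS in beta cells to 0. Of values that were not called, these changed sign after it: PDX1 in beta cells (0.25), UCN3 in beta cells (0.18), GCG in alpha cells (-0.67) and KDM5C over both (0.14). After median-of-ratios scaling these were PDX1 (0.20), UCN3 (0.12) and KDM5C (0.060), and with hormone and mitochondrial genes removed PDX1 (0.063). Without single libraries MAFA in beta cells ranged from -0.069 to 1.03, PDX1 from -0.40 to 0.19, UCN3 from -0.43 to 0.044, CDK1 over both from -0.17 to 0.59, FOS from -0.034 to 0.15 and TOP2A from -0.091 to 0.29. With 2 libraries a group and unknown depth, low TPM and small differences are least certain.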
